A study of Rattus norvegicus with 8 samples.

Results

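The let-7 family was examined in small RNA sequencing of exosomes, the small vesicles that cells release, from rat intervertebral disc cells. Its members were the rows of the deposited table with a rat name (prefix rno-) that, without its suffix for base or length changes, read let-7a-5p to let-7g-5p, let-7i-5p or miR-98-5p. The rule found 9 mature names in 12 rows, of 1273 names in 1512 rows in all. A group of 4 libraries came from nucleus pulposus cells (NPC), found in the gel-like core of the disc, and another of 4 from nucleus pulposus progenitor cells (NPPC). The labels name no strain, age, treatment or genotype for either group, and the 2 groups differ in the labels only by the cell type. The labels do not tie libraries to animals or cultures, so p-values cover the spread between libraries, which may be technical. In such bulk vesicle RNA, fewer vesicles that carry a miRNA and fewer copies per vesicle cannot be told apart.

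A miRNA guides a silencing protein complex to messenger RNAs that pair with its seed, the bases 2 to 8 from the 5′ end. The let-7 family is known for rising as cells differentiate and for repressing growth regulators such as Hmga2, Ras genes and Igf2bp genes. The RNA-binding proteins Lin28a and Lin28b block the maturation of let-7 precursors in stem and progenitor cells. miR-98 belongs to the family by sequence, although its name does not say so.

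All 9 members share 1 seed, and this is why they are read as a family. The mature sequences from RefSeq (GRCr8) follow, 5′ to 3′, with the seed in capitals.
let-7a-5p: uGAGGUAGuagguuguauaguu
let-7b-5p: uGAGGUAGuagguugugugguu
let-7c-5p: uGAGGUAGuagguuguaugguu
let-7d-5p: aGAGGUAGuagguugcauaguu
let-7e-5p: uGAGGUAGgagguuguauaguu
let-7f-5p: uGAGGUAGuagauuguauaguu
let-7g-5p: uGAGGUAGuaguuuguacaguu
let-7i-5p: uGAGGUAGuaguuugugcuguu
miR-98-5p: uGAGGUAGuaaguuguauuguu
RefSeq matched 9 of the 9 members, and of its 693 rat mature names these 9 were the ones with this seed. Each is 22 bases long, and each deposited row without a base substitution held the RefSeq sequence. Against let-7a-5p, counted from its 5′ end and with its base first, let-7c-5p differs by A19G and let-7b-5p by A17G and A19G. let-7e-5p differs by U9G, let-7f-5p by G12A, and let-7d-5p by U1A and U16C. miR-98-5p differs by G11A and A19U, let-7g-5p by G12U and U18C, and let-7i-5p at 4 positions. The differences lie outside the seed, but they move the GC content from 31.8% in let-7f-5p and miR-98-5p to 45.5% in let-7b-5p. let-7a-5p and let-7g-5p have 36.4%, and let-7c-5p, let-7d-5p, let-7e-5p and let-7i-5p have 40.9%.

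The hairpins lie singly or in short clusters, at coordinates of the deposited table whose genome build is not given in the sources used here. let-7a-1, let-7f-1 and let-7d follow each other on the plus strand of chromosome 17, from 16417851 to 16420079. let-7c-2 and let-7b are 314 bp apart on chromosome 7, where let-7b spans 126590624 to 126590723. let-7f-2 and mir-98 are 516 bp apart on chromosome X, where mir-98 spans 21583870 to 21583987. let-7e lies between mir-99b and mir-125a on chromosome 1, 59704375 to 59704483. let-7c-1 lies beside mir-99a on chromosome 11, 16052868 to 16052975, and let-7a-2 beside mir-100 on chromosome 8, 45753250 to 45753377. let-7g spans 114874434 to 114874567 on chromosome 8, and let-7i spans 66802717 to 66802851 on chromosome 7. In RefSeq (GRCr8) the bounds of Huwe1, a ubiquitin ligase gene, hold let-7f-2 and mir-98. Those of Wdr82 and Rpl29 hold let-7g, and those of Spaca6 hold let-7e. The hairpins of chromosome 17 lie within a long non-coding RNA gene, and let-7c-2 and let-7b within no other RefSeq gene. That table gives gene bounds only, so exon or intron was not analysed here.

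The count of let-7a-5p by name was mostly let-7c-5p sequence. One of its 2 rows is marked in the table as let-7a-5p with A19G, which is the exact sequence of let-7c-5p, and it held the same counts as each of the 2 rows named let-7c-5p. That row made up 81.6% to 92.3% of the let-7a-5p sum in NPC and 81.4% to 81.7% in NPPC libraries. All 139 sequences that the table lists in more than 1 row had the same counts in each of their rows. Where a sequence stood in 2 rows, 47.1% of values above 0 were whole within 0.02, and 96.0% were whole after doubling, as when reads are divided by the number of rows. The let-7c-5p sequence stands in 3 rows. In that class 21.7% of 69 values above 0 were whole, and 65.2% after multiplying by 3. Sequences in 1 row had 92.6% whole, so division is less clear for that class. Levels are given per sequence on the reading that reads were divided among rows. The 3 rows of the let-7c-5p sequence were added up, and the unsubstituted row alone is let-7a-5p. How reads of let-7a-5p were shared between its 2 hairpins is not shown by the table. The fits use sums per name, as the rule for the members asks, and the fit per sequence is given for these 2 members.

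The libraries held 329011 to 681591 counts in NPC and 819845 to 1416940 in NPPC. The depths of the groups did not overlap. All 9 miRNAs fixed as typical of cartilage and mesenchymal cells were above 0 in all 8 libraries, with a summed level of 158575 to 226791 CPM in NPC and 185398 to 200023 CPM in NPPC. CPM are depth-scaled counts, with library sizes adjusted by TMM, a factor per library that centres most features. The list has no miRNA that defines nucleus pulposus cells against other mesenchymal cells. Of markers of other cells the 2 endothelial miRNAs summed to 277 to 756 CPM in NPC and 461.3 to 679 CPM in NPPC, and the 2 of red cells to 41.0 to 255 and 124 to 887 CPM. The 4 leukocyte markers summed to 18.6 to 214 and 81.7 to 171 CPM, with miR-223-3p not listed. The epithelial, liver, neural and muscle lists each summed to at most 89.5 CPM in every library, with miR-141-3p not listed. The part of these cells in the let-7 results was not tested. NPC replicate 1, the shallowest library, stood apart with a TMM factor of 1.64 against 0.871 to 1.01 in the others. Over 278 rat names, which are not independent, the Spearman correlation of GC content with its deviation from the mean of the other libraries was 0.855 in NPC replicate 1 and -0.624 to -0.047 in the others. For the others that mean includes NPC replicate 1, so their values cannot be read as GC trends of their own. Results are given with and without NPC replicate 1.

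The family held 4.03%, 8.06%, 9.74% and 8.85% of all counts in NPC replicates 1 to 4, and 8.06%, 11.2%, 11.7% and 11.7% in NPPC replicates 1 to 4. NPC replicate 1 was the lowest, with a 95% Wilson interval of 3.96% to 4.10%, which covers counting error only since reads carried no molecular identifiers. NPPC replicate 1 lay within the range of NPC replicates 2 to 4, so the groups overlapped. The NPC mean was 7.67% ± 2.52 and the NPPC mean 10.7% ± 1.75 (SD, n = 4 each). Without replicate 1 the NPC mean was 8.88% ± 0.840 (SD, n = 3). The difference of 2.98 percentage points became 1.77 without NPC replicate 1 and 3.85 without NPPC replicate 1. A sum over members gets no test here.

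rno-let-7c-5p was the most abundant member in both groups. Its sequence stood at 6954, 32229.8, 40683 and 34370.0 CPM in NPC replicates 1 to 4 and at 28162, 45746, 49642 and 50356 CPM in NPPC replicates 1 to 4. NPC replicate 1 was low, NPPC replicate 1 lay among the NPC libraries, and the other NPPC libraries lay above all NPC libraries. The NPC mean was 28559 ± 14844 CPM and the NPPC mean 43476 ± 10409 CPM (SD, n = 4 each). Summed by name, from 2 of its 3 rows, its log2 fold change of NPPC over NPC was 0.61 ± 0.47 (SE). It did not pass edgeR's quasi-likelihood test (two-sided), with an adjusted p of 0.596 after Benjamini-Hochberg adjustment over 390 names. Fitted per sequence it had 0.67 ± 0.48 (SE), with an adjusted p of 0.592 by edgeR.

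rno-let-7b-5p, the member with the highest GC content, differed least in NPC replicate 1. It stood at 10581, 13674, 16116 and 13959 CPM in NPC and at 11943, 18708, 19908 and 19209 CPM in NPPC replicates 1 to 4. NPPC replicate 1 lay between NPC replicates 1 and 2 and the other 3 NPPC libraries lay above all NPC libraries, so the groups overlapped. Its log2 fold change was 0.36 ± 0.20 (SE), with an adjusted p of 0.504 by edgeR. It was 0.14 with total count scaling, which moved the median of all 390 names from -0.038 to -0.29 and that of the 9 members from 0.63 to 0.51.

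rno-let-7i-5p stood at 3506, 10459, 12609 and 11549 CPM in NPC replicates 1 to 4 and at 11785, 14392, 16709.5 and 16322 CPM in NPPC replicates 1 to 4. Here NPPC replicate 1 was above 3 of the 4 NPC libraries. Its log2 fold change was 0.64 ± 0.36 (SE), with an adjusted p of 0.504 by edgeR. rno-let-7d-5p, which alone among the members starts with A, stood at 2165, 7364, 8104 and 7504 CPM in NPC and at 7185, 9594, 10137 and 10123 CPM in NPPC replicates 1 to 4. Its values in NPC replicates 2 to 4 were close to each other, and NPPC replicate 1 lay just under them. Its log2 fold change was 0.56 ± 0.37 (SE), with an adjusted p of 0.564 by edgeR.

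The members of lower GC content spread most among the NPC libraries. rno-let-7f-5p, which has hairpins on chromosomes 17 and X, stood at 294, 7713, 17689.6 and 11412 CPM in NPC replicates 1 to 4 and at 9735, 15565, 17481 and 19336 CPM in NPPC replicates 1 to 4. Only NPPC replicate 4 lay above every NPC library, and without NPC replicate 1 the values of NPC replicates 2 and 3 still lay on both sides of NPPC replicate 1. The log2 fold change was 0.74 ± 0.86 (SE), with an adjusted p of 0.691 by edgeR. rno-let-7g-5p stood at 704, 6893, 11095 and 8713 CPM in NPC and at 7092, 10262, 10337 and 10922 CPM in NPPC replicates 1 to 4. NPC replicate 3 was the highest of its 8 values, and none of the NPPC libraries lay above it. Its log2 fold change was 0.49 ± 0.64 (SE), with an adjusted p of 0.728 by edgeR.

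The remaining 3 members were the least abundant. The unsubstituted rno-let-7a-5p row stood at 194, 2375, 3055 and 2412 CPM in NPC and at 2103, 3495, 3783 and 3846 CPM in NPPC replicates 1 to 4. Fitted per sequence its log2 fold change was 0.78 ± 0.67 (SE), with an adjusted p of 0.615 by edgeR over 422 sequences, against 0.63 ± 0.50 (SE) by name with an adjusted p of 0.596 by edgeR. NPPC replicate 1 was below NPC replicates 2 to 4, and the other NPPC libraries were above them. rno-let-7e-5p stood at 268, 1298, 2000.2 and 1292 CPM in NPC and at 1315, 1905, 2226 and 2235 CPM in NPPC replicates 1 to 4. NPC replicate 3 lay among the NPPC values, and the log2 fold change was 0.66 ± 0.51 (SE), with an adjusted p of 0.596 by edgeR.

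rno-miR-98-5p had the largest edgeR log2 fold change of the 9 members, while with limma-voom let-7f-5p was ahead of it at 1.69 against 1.68. It stood at 26.1, 460.1, 680.2 and 521 CPM in NPC replicates 1 to 4 and at 561, 874, 898 and 1070.4 CPM in NPPC replicates 1 to 4. NPC replicate 1 rested on 14 counts, and NPC replicate 3 lay above NPPC replicate 1, so the groups overlapped. The log2 fold change was 1.01 ± 0.73 (SE), or 0.63 ± 0.24 (SE) without NPC replicate 1, with adjusted p of 0.591 and 0.185 by edgeR.

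**Figure D1:**
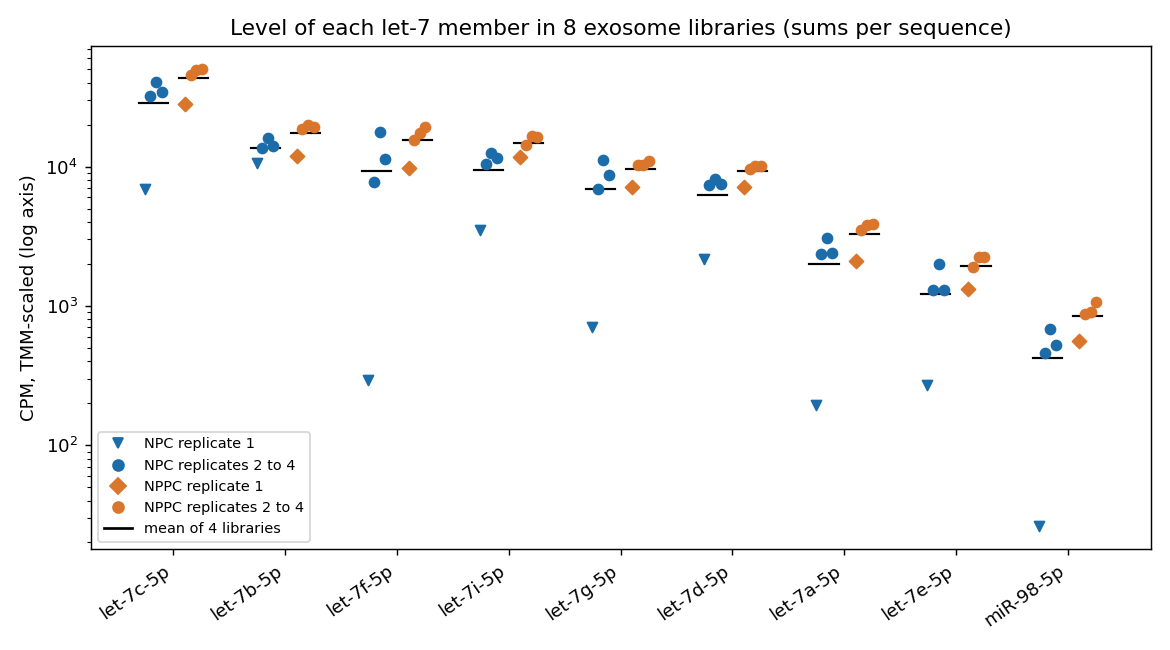
Each point is 1 library, in CPM on a log axis, for the 9 members ordered by their NPPC mean, with sums per sequence. Bars are means of 4 libraries. NPC replicate 1 (triangles) is the lowest of the 8 values for every member, from 10581 CPM for let-7b-5p to 26.1 CPM for miR-98-5p. For let-7b-5p this rests on the TMM scaling. NPPC replicate 1 (diamonds) is the lowest NPPC value for every member.

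The order of levels was nearly the same in both groups. In NPPC it ran let-7c-5p, let-7b-5p, let-7f-5p, let-7i-5p, let-7g-5p, let-7d-5p, let-7a-5p, let-7e-5p and miR-98-5p, all of 1 length. The ranges over the 4 NPPC libraries overlapped between let-7b-5p and let-7f-5p, between let-7f-5p and let-7i-5p, between let-7g-5p and let-7d-5p, and between let-7a-5p and let-7e-5p. The other neighbours in that order did not overlap. In NPC, let-7i-5p stood before let-7f-5p by their means, 9530.5 ± 4111 CPM and 9277 ± 7268 CPM (SD, n = 4 each), and all neighbours in the order overlapped. Without NPC replicate 1 the order in NPC was that of NPPC.

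Across the 9 members 0 passed the test, where 0.256% of the 390 names tested passed in either direction, and 0 had an unadjusted p under 0.05, where 10.5% of names did. That last count was 8 with no filter on low counts, where 8.09% of names had such a p, and 3 with the replicate number as a block, where 12.3% did. With the block the members' log2 fold changes ran from 0.35 for let-7b-5p to 1.499 for miR-98-5p, with adjusted p of 0.363 to 0.487 by edgeR. The 1 name that passed was miR-146a-5p, and 0 names passed with the replicate number as a block. DESeq2's Wald test called 6 names and limma-voom 1, of which 0 were members. The log2 fold changes of the members were all above 0, from 0.36 to 1.01 with a median of 0.63, where 48.7% of all names were above 0 and their median was -0.038. Over the rat names in that fit the median was 0.19. The members are measured in the same libraries, and 2 names share rows with 1 sequence, so 9 positive values are not 9 separate observations. In 0 of 9 members did all NPPC libraries lie above all NPC libraries, where 6.15% of all names and 7.19% of the rat names did. Leaving out NPC replicate 1 still gave 0 of 9, where 8.72% of names did. Between libraries of the same number, NPPC was above NPC in all 4 pairs in 7 of 9 members, where 17.4% of all names and 21.9% of the rat names were. let-7f-5p and let-7g-5p were the exceptions, each in the pair numbered 3, and the family's share of counts was higher in NPPC in all 4 pairs. The labels do not say what a number marks, so these are pairs by number only.

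Leaving out NPC replicate 1 lowered the fitted difference of every member. The median of the 9 fell from 0.63 to 0.30, with a range of 0.13 for let-7g-5p to 0.63 for miR-98-5p, and 0 members passed (0.234% of 427 names passed). The 9 values stayed above 0, where 45.9% of names were. let-7i-5p at 0.37 ± 0.14 (SE) and miR-98-5p had an unadjusted p under 0.05, as did 20.1% of names, and their adjusted p were 0.178 and 0.185 by edgeR. Without NPC replicate 3, the highest NPC library for each member, the median was 0.90 and 0 members passed. With a GC correction on all 8 libraries the median was 0.16 and let-7g-5p turned to -0.0012. The median of all names was then -0.0064 and that of the rat names 0.078. With that correction and without NPC replicate 1, the median of the members was 0.13. There it was 0.069 over all names and 0.14 over the rat names, and 56.2% of all names were above 0. Under the correction on all 8 libraries miR-98-5p had 0.48 ± 0.19 (SE), with an adjusted p of 0.569 by edgeR.

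NPPC replicate 1, the shallowest NPPC library, bore on the result from the other side. It was the lowest NPPC library in 9 of 9 members and lay under the highest NPC library in 9 of 9. In TMM-scaled CPM, NPPC replicates 2 to 4 lay above all 4 NPC libraries in 6 of 9 members, where 13.1% of names did. The exceptions were let-7e-5p, let-7f-5p and let-7g-5p. Without NPPC replicate 1 alone 0 members passed and their median was 0.84. With neither library numbered 1, an alternative chosen after the data were seen, 6 of 9 members passed in the upward direction, where 4.73% of 423 names did and 9.93% passed in either direction. These were let-7a-5p, let-7b-5p, let-7c-5p, let-7d-5p, let-7i-5p and miR-98-5p, with log2 fold changes of 0.41 for let-7d-5p to 0.81 for miR-98-5p and adjusted p of 0.0337 to 0.0382 by edgeR. let-7e-5p, let-7f-5p and let-7g-5p did not pass, at 0.50, 0.53 and 0.27. In TMM-scaled CPM the 2 libraries left out were the lowest of their groups in 9 of 9 members. These p-values are therefore a description and not an independent test. No GC correction was fitted in that setting. let-7a-5p and let-7c-5p are here sums by name that mostly count the same sequence. With sums per sequence, also added after the data were seen, the same 6 members passed, where 8.75% of 457 sequences passed in either direction. let-7a-5p then had 0.59 ± 0.14 (SE) and let-7c-5p 0.53 ± 0.12 (SE), with adjusted p of 0.045 and 0.0439 by edgeR. In the fit by name 7 of the 9 members had an unadjusted p under 0.05, as did 27.9% of 423 names. All 9 were above 0 there, as were 47.5% of names. Of the 390 names tested with all 8 libraries, 15.6% had all NPPC libraries kept there above all NPC libraries kept. The same 6 members as above did so.

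**Figure D2:**
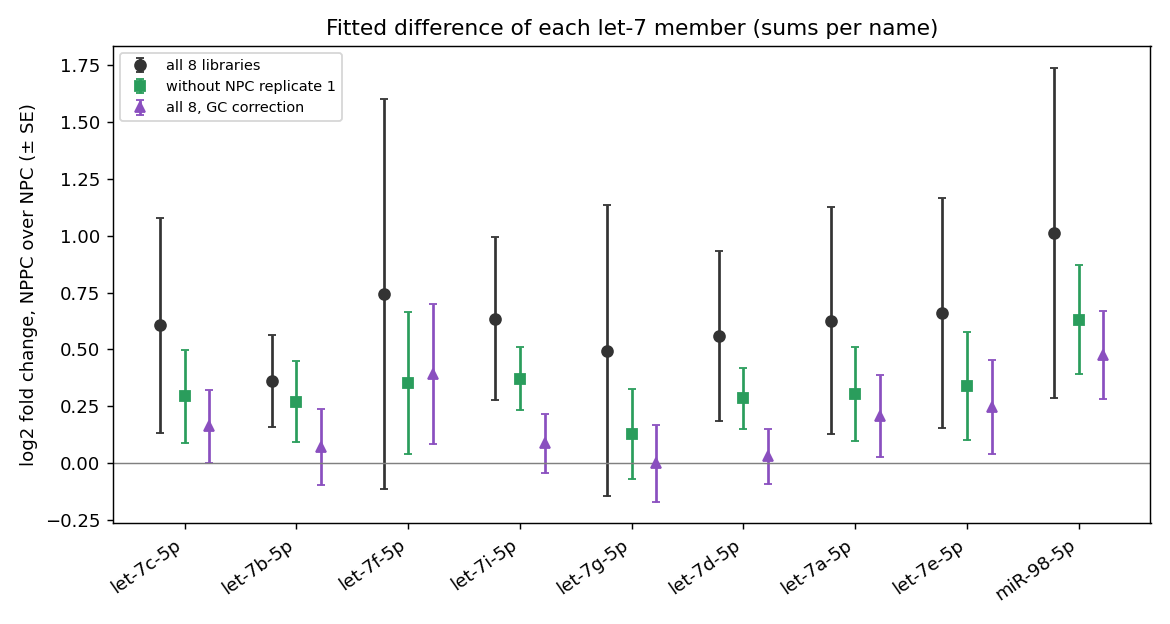
Points are fitted log2 fold changes of NPPC over NPC for the 9 members, with sums per name, and bars are 1 standard error. The values with all 8 libraries lie at 0.36 to 1.01, those without NPC replicate 1 at 0.13 to 0.63, and those with a GC correction at -0.0012 to 0.48.

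Within NPC replicate 1 the members dropped in the order of their GC content. On the log2 scale its deviation from the mean of the other 7 libraries was -5.52 for let-7f-5p and -4.73 for miR-98-5p, at 31.8% GC. It was -3.92 for let-7a-5p and -3.70 for let-7g-5p, at 36.4% GC. The 4 members at 40.9% GC deviated by -2.67 to -1.91, and let-7b-5p, at 45.5% GC, by -0.59. These are deviations of TMM-scaled CPM. As an unscaled share of counts let-7b-5p was not low in NPC replicate 1. The steps did not overlap. Across the 9 members Pearson's r of GC content with this deviation was 0.978, a description, since the members share 1 library and few bases tell them apart. Without NPC replicate 1 in the reference, r was 0.840 in NPC replicate 2, -0.77 in NPPC replicate 4 and -0.47 to 0.296 in the others, over deviations between -0.94 and 0.73. The part of GC content in the difference between groups was not tested beyond the corrected values above.

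**Figure D3:**
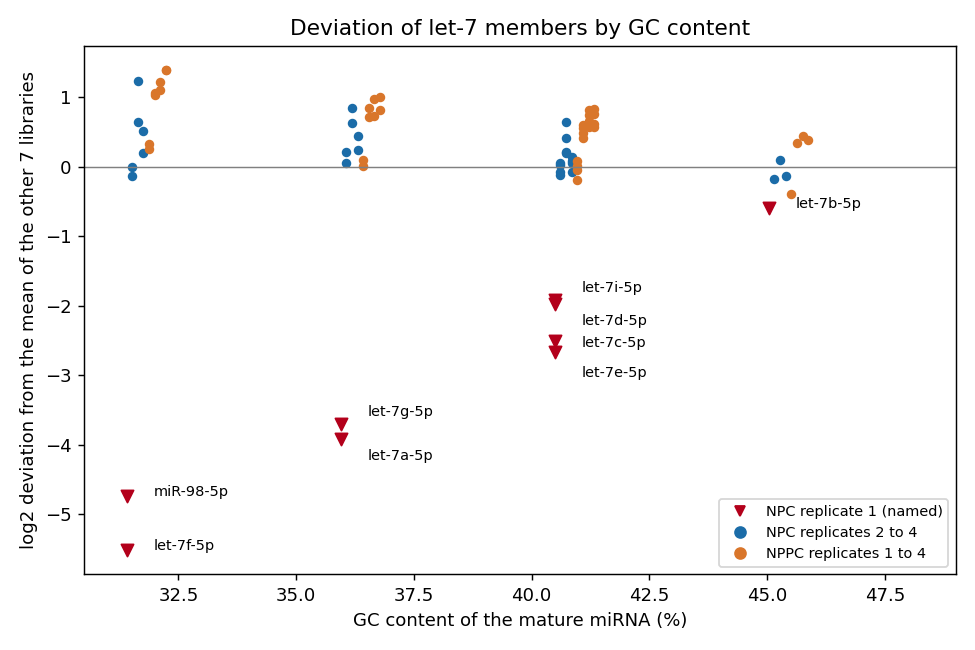
The x axis gives the GC content of each member's mature sequence, with points shifted sideways by library to keep them apart, and the y axis the log2 deviation of a library from the mean of the other 7. NPC replicate 1 falls from -0.59 for let-7b-5p to -5.52 for let-7f-5p, while the other libraries stay between -0.39 and 1.39.

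The make-up of the family, which no library scaling touches, overlapped between the groups for every member but miR-98-5p. let-7c-5p held 36.3% to 39.1% of the family's counts in NPC replicates 2 to 4 and 35.3% to 38.0% in NPPC. let-7b-5p held 14.4% to 16.6% and 14.4% to 15.5%, and let-7i-5p 11.3% to 12.7% and 11.9% to 14.8%. let-7f-5p held 9.35% to 15.8% in NPC replicates 2 to 4 and 12.2% to 14.5% in NPPC. Over NPC replicates 2 to 4 this SD of 3.22 percentage points was the highest of the members, and in NPPC that of let-7c-5p was, at 1.30. let-7g-5p held 8.36% to 9.90% and 7.88% to 8.88%, and let-7d-5p 7.23% to 8.93% and 7.59% to 8.99%. In NPC replicate 1 let-7b-5p held 42.9% and let-7f-5p 1.19%, so that library carried a different mixture.

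miR-98-5p was the 1 member whose share of the family did not overlap between groups. It held 0.106%, 0.558%, 0.607% and 0.567% in NPC replicates 1 to 4 and 0.702%, 0.725%, 0.685% and 0.802% in NPPC replicates 1 to 4. The highest NPC library had a 95% Wilson interval of 0.551% to 0.669%, and the lowest NPPC library one of 0.646% to 0.726%. These intervals overlap, which does not show that the 2 libraries were alike. Taken relative to the family sum, 7.69% of all 390 names did not overlap between groups, 1.28% with all NPPC libraries higher. The count of 1 member in 9 was not tested against these shares. Relative to let-7f-5p, which has the same GC content, miR-98-5p overlapped between the groups. That ratio in CPM was 0.0886 in NPC replicate 1, 0.0385 to 0.0597 in NPC replicates 2 to 4 and 0.0514 to 0.0576 in NPPC.

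**Figure D4:**
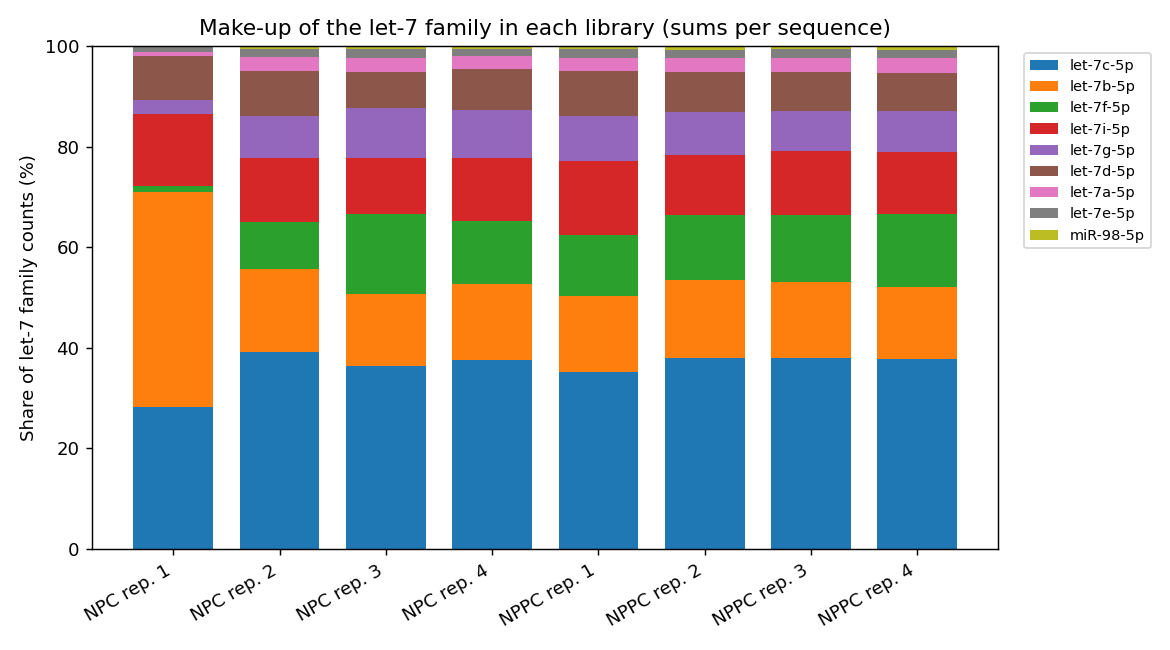
Each bar is 1 library and each colour a member, as a share of the family's counts with sums per sequence. let-7b-5p takes 42.9% in NPC replicate 1 and 14.4% to 16.6% in the other 7 libraries, where let-7c-5p takes 35.3% to 39.1%.

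The 9 members moved together across libraries. The 36 pairwise Pearson correlations of log2 CPM over the 8 libraries had a median of 0.989 and ran from 0.743 to 0.998. Without NPC replicate 1 they had a median of 0.909 and ran from 0.773 to 0.995 over 7 libraries. These points share libraries and depth, so the values are a description. Among rat names outside the family, miR-196a-5p and miR-196c-5p were most like the summed family, with r of 0.992 over 8 libraries and 0.975 over 7, and equal values to each other. miR-374-5p, miR-20a-5p and miR-466c-5p followed at 0.986, 0.986 and 0.985 over 8 libraries. Without NPC replicate 1 the next names were miR-23b-3p at 0.956, let-7b-3p at 0.946 and miR-10a-3p at 0.937.

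The other arms of the let-7 hairpins, usually degraded as passenger strands, were at low levels but for let-7d-3p. Of 12 such names 10 were in the table, 6 were tested and 0 passed, with 4 above 0. let-7d-3p averaged 1742 ± 279 CPM in NPC and 1562 ± 149 CPM in NPPC (SD, n = 4 each), a log2 fold change of -0.16 ± 0.17 (SE) with an adjusted p of 0.670 by edgeR. It is shown here because, with more G and C than any member, it did not drop in NPC replicate 1 as its 5p arm did.
let-7d-3p: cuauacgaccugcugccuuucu
It made up 47.0% of the counts of both let-7d arms in NPC replicate 1, 14.5% to 21.0% in the other NPC libraries and 12.8% to 19.6% in NPPC. let-7c-2-3p, whose mature sequence in RefSeq is also that of let-7a-1-3p, averaged 314 ± 210.4 CPM in NPC and 509.8 ± 69.0 CPM in NPPC (SD, n = 4 each), with a log2 fold change of 0.70 ± 0.78 (SE). Without NPC replicate 1, which stood at 11.2 CPM, the NPC mean of let-7c-2-3p was 414 CPM and its log2 fold change 0.31. let-7b-3p averaged 24.3 ± 8.86 CPM and 55.2 ± 29.97 CPM (SD, n = 4 each), with 1.18 ± 0.56 (SE). let-7i-3p averaged 28.9 ± 28.95 CPM and 43.2 ± 10.4 CPM (SD, n = 4 each), with 0.57 ± 0.95 (SE). Without NPC replicate 1 its NPC mean was 18.1 CPM and its log2 fold change 1.24. Their adjusted p by edgeR were 0.675, 0.458 and 0.785.

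The miRNAs whose hairpins lie beside let-7 hairpins gave fitted differences of -0.25 to 0.10. Of 5 tested names 0 passed and 1 was above 0, and the sign of 4 of them depended on the setting, miR-99a-5p being the exception among the settings given here. miR-99b-5p and miR-125a-5p, the neighbours of let-7e, had log2 fold changes of -0.25 ± 0.14 (SE) and -0.080 ± 0.19 (SE), and let-7e-5p had 0.66. miR-99b-5p turned to 0.18 with the GC correction and miR-125a-5p to 0.023 without NPC replicate 1. let-7e-5p itself fell to 0.25 with the GC correction and to 0.34 without NPC replicate 1. miR-99a-5p and miR-100-5p, the neighbours of let-7c-1 and let-7a-2, had -0.16 ± 0.14 (SE) and -0.061 ± 0.16 (SE), and the latter turned to 0.013 with the GC correction. miR-125b-5p, which has hairpins farther along both loci, had 0.10 ± 0.13 (SE), and -0.17 with total count scaling. Adjusted p by edgeR ran from 0.504 to 0.866. The ratio of let-7e-5p to miR-99b-5p in CPM averaged 0.152 ± 0.0942 in NPC and 0.274 ± 0.0729 in NPPC (SD, n = 4 each), and the groups overlapped. That ratio was 0.0268 in NPC replicate 1, 0.153 to 0.254 in the other NPC libraries and 0.168 to 0.323 in NPPC. The differences between neighbours were not tested.

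A row named after mouse let-7j held the let-7i-5p sequence with 2 more bases at its 3′ end and so carries the let-7 seed. Its name was summed with a second row that does not, and averaged 45.5 ± 25.4 CPM in NPC and 80.8 ± 8.16 CPM in NPPC (SD, n = 4 each). The log2 fold change was 0.83 ± 0.43 (SE), with an adjusted p of 0.494 by edgeR, and it turned to -0.061 with the GC correction. The 4 miRNAs antisense to let-7 hairpins, miR-3596a to miR-3596d, were not listed in the table.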

How the data were processed

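Small RNA was sequenced in 8 exosome libraries. Per the labels' protocols, exosome RNA went into TruSeq small RNA libraries. The submitters' processing notes name CASAVA 1.8. Which aligner, miRBase release and genome build were used is not given in the sources used here. For each row the authors deposited estimated counts. They also deposited a scaled signal, which equalled the count times 1 factor per library within 0.00244%. Groups and replicate numbers came from the titles.

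Rows were summed per name without the suffix for base or length changes, over the whole table, and rounded to whole numbers. edgeR 4.0.16 in R 4.3.3 was used with TMM factors, filterByExpr and the quasi-likelihood test (two-sided), with a model of group alone. P-values were Benjamini-Hochberg adjusted over 390 names. A call is an adjusted p under 0.05. log2 CPM used a prior count of 2. Standard errors are the fold change over the root of the F statistic. The GC correction entered, as an offset, each library's loess trend over GC percent (span 0.75). Alternatives were DESeq2 1.42.0, limma 3.58.1 (voom), other scalings, filters and counting units, thinning to 329010 counts, a replicate block and each library left out. Sums per sequence, the authors' scaling, the GC correction without NPC replicate 1 and the fits with neither library numbered 1 were added after the data were seen. The test was tested on simulated data.

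Deviations of same-numbered NPC and NPPC libraries from their group means correlated at 0.116 to 0.565 over 390 names, above 0.1 in all 4 pairs. Libraries of different numbers correlated at -0.483 to 0.355. NPC replicate 2 correlated more with NPPC replicate 4 (0.277) than with NPPC replicate 2 (0.116). NPC replicate 4 correlated more with NPPC replicate 2 (0.355) than with NPPC replicate 4 (0.243). NPC replicates 1 and 3 correlated most with the NPPC library of their own number. The fits printed are without the block unless the block is named, since the design was set so. Whether libraries of the same number are paired is not settled by these values, and the labels do not say what a number marks. The members and lists were chosen with earlier results of these data known. All 9 members are named. Of the other arms the 4 with the highest mean CPM are named, of the neighbouring miRNAs all, of other names with the seed those with a mean of at least 1 CPM, and of similar patterns the 5 with the highest correlation. Python 3.11.15, numpy 2.4.6, pandas 2.3.3, scipy 1.17.1 and matplotlib 3.10.9 were used.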

Additional observations from a re-analysis of the deposited data

Results flagged for a closer look

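Of 18 sets of 4 libraries examined (9 members in 2 groups), 2 had 1 value well away from the remaining 3. By chance about 1 in 20 independent sets would, but these sets share libraries and the members move together, so that rate is no yardstick here. The rule sets a gap against the range of CPM. It passed over let-7f-5p and miR-98-5p, whose other NPC libraries averaged 41.7 and 21.2 times NPC replicate 1. let-7b-5p stood at 11943 CPM in NPPC replicate 1 and at 18708 to 19908 CPM in the other NPPC libraries. let-7d-5p stood at 2165 CPM in NPC replicate 1 and at 7364 to 8104 CPM in the other NPC libraries.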

How the results depend on the processing

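Under 29 alternatives the median log2 fold change of the let-7 members ran from 0.13 to 0.90, against 0.63, and 8 or 9 of the 9 members were above 0. let-7g-5p turned to -0.0012 with the GC correction and to -0.13 with that correction without NPC replicate 1. The number of members that passed was 0 except with neither library numbered 1, where it was 6, by name and per sequence. With a library left out it was 0 throughout, the median ran from 0.30 to 0.90, and the family's share differed by 1.77 to 3.85 percentage points. The number of names that passed over the whole table was 1, and 0 to 1 with a library left out. It was 8 with no filter, 6 with DESeq2's Wald test, 2 with the replicate block and the GC correction, 0 with rows as deposited and 42 with neither library numbered 1, or 40 per sequence. With the replicate block alone it was 0, the median of the members was 0.87, and the block changed the call of no member. The cause of these shifts was not tested. With libraries thinned to the smallest total the median was 0.56. miR-98-5p rests on 14 counts in NPC replicate 1, and its log2 fold change was 0.99 with thinning and 1.01 without.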
